A study of Mus musculus with 15 samples.

Results

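The 47 genes described here encode the machinery that carries newly made proteins from the endoplasmic reticulum (ER) to the Golgi apparatus and returns escaped components. They were listed by function, with earlier results of these data known. They fall into the COPII coat and its assembly (13 genes), the COPI coat and its Arf switch (12), cargo receptors (12), and tethers and fusion factors (10). Each gene was found through the accession of its array probes and was represented by whichever of its probes was brightest in red on average over the 15 arrays. All 47 had a probe that passed the filter on dim probes, among 16057 named genes and 23938 features in all.

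COPII-coated vesicles bud from ER exit sites, where the GTPase Sar1 recruits an inner coat of Sec23 and Sec24 and an outer coat of Sec13 and Sec31. COPI-coated vesicles, recruited by Arf GTPases, carry receptors and resident proteins back from the Golgi, and tethers and SNARE proteins bring the vesicles to their target membrane. In the small intestine this route is used heavily by goblet cells, which release mucins, and by Paneth cells, which release antimicrobial proteins.

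The study measured RNA of small intestinal crypts, the epithelial pits that hold stem cells, dividing progeny and Paneth cells, from mice aged 6 to 8 weeks at 24 h after treatment. The control group received control IgG, the N1N2 group received a single dose of antibodies that block Notch1 and Notch2, and the N1N2 plus Lrp6 group received these Notch antibodies together with 30 mg/kg of anti-Lrp6, which binds a Wnt co-receptor. The labels give the Notch antibodies as 1 mg/mL, a concentration, and amount per animal, strain and sex are not given in the sources used here. There were 5 arrays per group, called biological replicates in the series design. The labels do not say whether the crypts of an array came from 1 animal or several, so p-values measure the spread between these samples. Each array carried crypt RNA in red (Cy5) and a universal mouse reference RNA in green (Cy3), with no dye swap, so a level is log2 of crypt over reference, and a change is a difference of 2 such group means. Both comparisons named in the series design are reported, N1N2 against control and N1N2 plus Lrp6 against N1N2, with N1N2 plus Lrp6 against control beside them.

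On every array 10 of 10 tested crypt epithelial markers were well above background. So were 14 of 14 tested immune markers, so detection alone does not show how pure the epithelium was. Stromal and muscle markers were lower in the Lrp6 antibody group, with mean log2 ratios over 18 genes of -3.48 to -2.81 in control, -3.64 to -3.31 in N1N2 and -4.60 to -3.74 in N1N2 plus Lrp6. Of these 18 markers, 14 were well above background on all 15 arrays, and Pdgfra was so on 5. Between 71.1% and 79.8% of probes were well above background in control, 70.1% to 77.2% in N1N2 and 57.2% to 73.6% in N1N2 plus Lrp6. The arrays came from 6 slides, and no slide held both N1N2 plus Lrp6 and another group, so slide and that treatment cannot be told apart. Control and N1N2 stood together only on slide 2, so N1N2 against control also lies mostly between slides. Replicate 3 of N1N2, alone on its slide, was scanned on a different day from all other arrays. Precision is limited by the 5 arrays per group.

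RefSeq promoter sequence of assembly GRCm38.p6 was matched for 40 of the 47 genes and searched over 250 bases before the start. The unfolded protein response element (UPRE) core, TGACGTGG on either strand, stood in 6 of these 40 genes, against 0.603% of 27025 genes with a window. The 6 were Sec24d and Sec16b of the COPII group, Copb1, Arf1 and Gbf1 of the COPI group, and the retrieval receptor Kdelr3. The 100 bases before the start are shown for these 6 and, as genes without the core, for Preb and Tmed9, which had some of the smallest adjusted p-values below. Sequences read 5′ to 3′ on the gene's strand, and capitals mark the core or its reverse complement.
Sec24d, chr3:123267396-123267495, plus strand: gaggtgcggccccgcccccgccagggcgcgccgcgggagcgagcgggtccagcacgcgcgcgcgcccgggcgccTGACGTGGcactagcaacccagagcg
Sec16b, chr1:157506696-157506795, plus strand: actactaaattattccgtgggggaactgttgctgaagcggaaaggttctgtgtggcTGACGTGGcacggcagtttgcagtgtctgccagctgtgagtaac
Copb1, chr7:114254681-114254780, minus strand: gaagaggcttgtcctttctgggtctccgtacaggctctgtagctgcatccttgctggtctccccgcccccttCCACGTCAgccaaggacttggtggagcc
Arf1, chr11:59228163-59228262, minus strand: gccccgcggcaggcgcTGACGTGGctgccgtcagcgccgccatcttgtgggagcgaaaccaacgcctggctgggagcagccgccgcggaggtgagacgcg
Gbf1, chr19:46152458-46152557, plus strand: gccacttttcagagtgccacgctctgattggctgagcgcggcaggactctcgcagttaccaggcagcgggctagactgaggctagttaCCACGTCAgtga
Kdelr3, chr15:79516308-79516407, plus strand: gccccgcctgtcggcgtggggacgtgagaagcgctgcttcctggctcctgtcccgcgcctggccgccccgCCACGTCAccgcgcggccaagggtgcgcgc
Preb, chr5:30960328-30960427, minus strand: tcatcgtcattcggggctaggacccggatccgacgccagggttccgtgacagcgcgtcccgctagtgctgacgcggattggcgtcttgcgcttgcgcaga
Tmed9, chr13:55593035-55593134, plus strand: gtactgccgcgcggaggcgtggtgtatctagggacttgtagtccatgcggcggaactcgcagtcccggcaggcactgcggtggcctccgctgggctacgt

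The core began 84 bases before the start in Arf1, 44 in Sec16b, 30 in Kdelr3, 28 in Copb1, 26 in Sec24d and 12 in Gbf1. The ER stress response element (ERSE) and its shorter form ERSE-II were in none of the 40 windows, against 0.13% and 0.037% of all genes. The cyclic AMP response element TGACGTCA was in 2 of 40, Cope and Gosr2, against 1.77% of genes, and the E-box CACGTG in 6 of 40 against 6.86%. The pentamer CCACG, which the reverse complement of the UPRE core contains, was in 29 of 40 against 31.0%. None of the 66 other transport genes with a window, listed apart from the 47, held the UPRE core. All motifs were searched on both strands, and a match describes the letters in the window only.

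The UPRE core was present in 2 of 13 genes with a window that passed the test in either comparison of the series design, Gbf1 and Kdelr3, and in 4 of 27 that passed in neither.

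In control crypts 43 of the 47 genes stood above the reference RNA, with a median log2 ratio of 1.05. The lowest was Kdelr3 at -1.45 ± 0.21 (SD, n = 5) and the highest Sec16b, a scaffold of ER exit sites, at 3.55 ± 0.22 (SD, n = 5), an order of ratios to the reference and not of abundance. Apart from Gbf1, which was well above background on 14 arrays, the genes were well above background in red on all 15. The spread between arrays was wider with the Lrp6 antibody, where the median SD over the 47 genes was 0.212, against 0.146 in control and 0.136 in N1N2. The SD was larger in N1N2 plus Lrp6 than in N1N2 for 38 of 47 genes, and over all features the median SDs were 0.135 in control, 0.152 in N1N2 and 0.188 in N1N2 plus Lrp6.

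After Notch blockade 9 of the 47 transport genes rose and none fell (limma, Benjamini-Hochberg adjusted over all features, threshold 0.05). They were 3 TMED cargo receptors (Tmed9, Tmed3 and Tmed2), 3 tethering and fusion genes (Golgb1, Stx5a and Golga2), 2 COPII assembly genes (Preb and Sec16a) and the Arf activator Gbf1, with rises from 1.22-fold to 1.86-fold. The 9 genes are 19.1% of the set, against 6.57% of all features called higher, and none lower compares with 5.15% of all features. The median change of the 47 genes was 0.10 and 31 of 47 lay above 0, against a median of 0.0018 and 50.4% above 0 over all features. However, the median of the 47 turned to -0.12 when arrays were median-centred in place of loess, against -0.058 over all features. The median of the 47 turned to -0.15 when arrays were scaled to each other after loess, against -0.0081 over all features. In the N1N2 group 8 genes were higher than control on every array, against 6.14% of features, and 1 gene, Sec13, was lower on every array, against 5.9%.

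With the Lrp6 antibody added, 15 of the 47 genes were lower than with the Notch antibodies alone and none was higher (limma, Benjamini-Hochberg). They included 7 of the 12 cargo receptors, 4 COPII genes and 4 tethering and fusion genes, with falls from 1.20-fold to 1.92-fold, and none of the COPI group. The 15 genes are 31.9% of the set, against 7.26% of all features called lower, while 9.45% of all features were called higher. The median change was -0.24 and 39 of 47 lay below 0, against a median of -0.00096 over all features. However, the median of the 47 was 0.03 under median centring and -0.12 with scaled arrays, against 0.014 and 0.0095 over all features. Of the 47 genes, 13 were lower on every N1N2 plus Lrp6 array than on any N1N2 array, against 4.02% of features, and none was higher on every array, against 6.13%.

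N1N2 plus Lrp6 against control gave no call among the 47 genes in either direction (limma, Benjamini-Hochberg, lowest adjusted p 0.34), where 0.221% of all features were called higher and 0.155% lower. None of the 47 lay wholly above or below the control arrays, against 1.51% and 1.07% of features. For the 16 genes called in either of the other comparisons the differences from control ran from -0.33 to 0.25, and their 95% confidence intervals lay between -0.65 and 0.65. The N1N2 arrays enter both comparisons of the series design with opposite sign, so a fall in the second is not independent of a rise in the first.

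**Figure D1:**
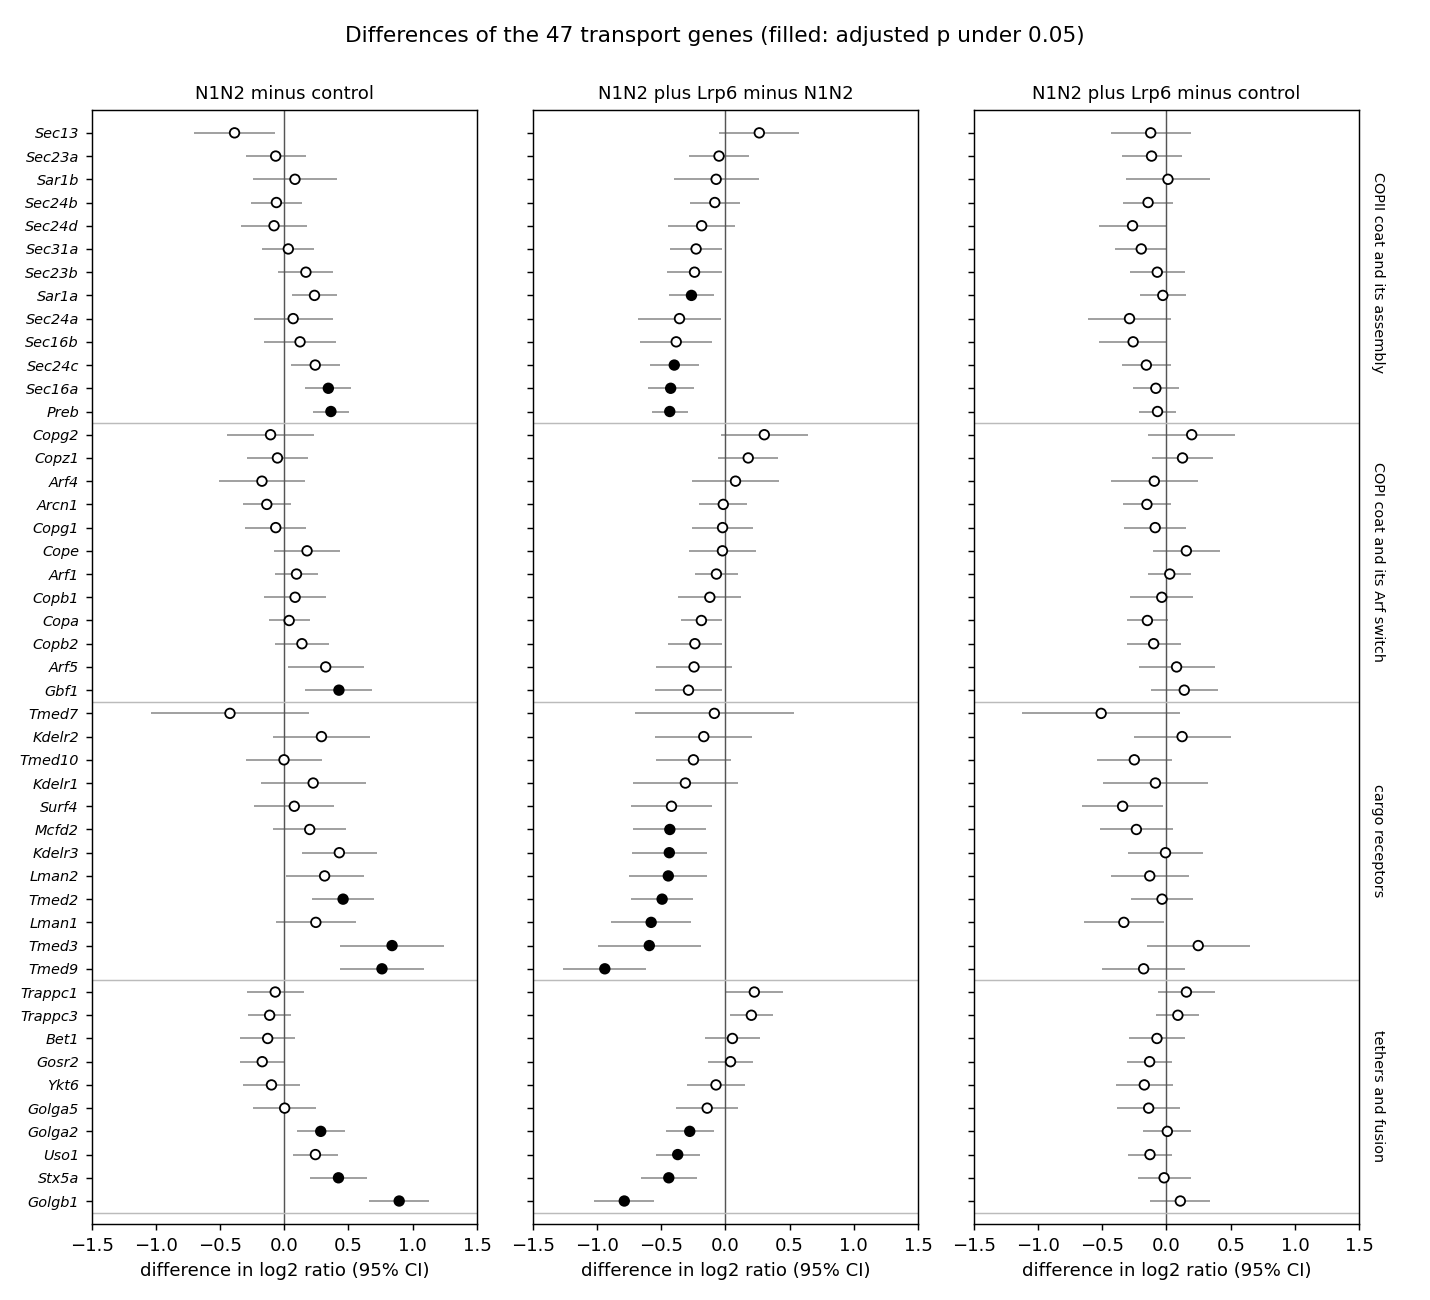
Differences between group means of the log2 ratio for the 47 genes in N1N2 minus control (left), N1N2 plus Lrp6 minus N1N2 (middle) and N1N2 plus Lrp6 minus control (right), with 95% confidence intervals and filled points for adjusted p under 0.05. The 9 filled points on the left lie above 0, the 15 in the middle lie below 0 and the right panel has none.

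The cargo receptors had the largest median changes of the 4 roles, 0.27 in N1N2 against control and -0.43 in N1N2 plus Lrp6 against N1N2. Their medians were 0.03 and -0.05 under median centring and -0.01 and -0.29 with scaled arrays, so the size and, in the first comparison, the sign of the group's shift moved with the scaling. Averaged over the 12 genes, the log2 ratio lay between 1.04 and 1.43 on the control arrays, between 1.46 and 1.60 on the N1N2 arrays and between 0.61 and 1.42 on the N1N2 plus Lrp6 arrays. The N1N2 arrays therefore lay above all others by this mean, and replicate 1 of N1N2 plus Lrp6 was the lowest array.

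Tmed9, a TMED receptor of the ER and early Golgi, had log2 ratios of 0.41, 0.59, 0.68, 0.62 and 0.78 on control arrays 1 to 5. On the N1N2 arrays it was at 1.33, 1.35, 1.40, 1.47 and 1.34, and on the N1N2 plus Lrp6 arrays at -0.22, 0.53, 0.95, 0.41 and 0.53. Every N1N2 array was above every array of both other groups, which overlapped each other. Tmed9 rose 1.69-fold with the Notch antibodies (log2 change 0.76, SE 0.15, limma adjusted p = 0.0053). It was 1.92-fold lower with the Lrp6 antibody added (log2 change -0.94, SE 0.15, limma adjusted p = 0.0013). A second Tmed9 probe gave 0.12 (adjusted p = 0.64) and -0.55 (adjusted p = 0.017, limma), so the rise was not seen on it and the fall was. Under median centring the changes were 0.43 and -0.47, with adjusted p of 0.11 and 0.058 by limma.

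Tmed3, another TMED receptor, was at 0.41, 0.85, 0.77, 0.57 and 0.62 on the control arrays. The N1N2 arrays read 1.48, 1.35, 1.56, 1.35 and 1.67, and the N1N2 plus Lrp6 arrays 0.12, 1.20, 1.41, 1.12 and 0.61. N1N2 and control did not overlap, whereas the N1N2 plus Lrp6 arrays spread from below the lowest control to just inside the N1N2 range. The rise was 1.79-fold (log2 change 0.84, SE 0.19, limma adjusted p = 0.01) and the fall 1.51-fold (log2 change -0.59, SE 0.19, limma adjusted p = 0.043). The fall passed the threshold in 2 of the 10 fits that left out 1 array, those without replicate 2 or 3 of N1N2 plus Lrp6, and it was -0.40 (adjusted p = 0.073, limma) without replicate 1 of that group. Neither change of Tmed3 was called under median centring, at 0.49 and -0.11 (limma adjusted p = 0.11 and 0.78), or with scaled arrays, at 0.59 and -0.50 (limma adjusted p = 0.12 and 0.21).

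Tmed2, another TMED receptor called in both comparisons, rose by 0.46 (SE 0.11, limma adjusted p = 0.017) and fell by 0.49 (SE 0.11, limma adjusted p = 0.0085). Under median centring its changes were 0.11 and -0.0042, neither called. Its second probe read -0.45 and 0.02, neither called, so its probes disagree in sign in both comparisons. Tmed10, a TMED receptor that partners Tmed2, changed by -0.0019 and -0.25 and passed in neither. Tmed7 had the widest spread of the group, with SDs of 0.32, 0.52 and 0.65 in control, N1N2 and N1N2 plus Lrp6, and its changes of -0.42 and -0.09 were not called.

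Lman1, the mannose-binding receptor that exports glycoproteins such as clotting factors together with Mcfd2, was at 0.70, 0.85, 1.26, 1.03 and 0.67 on the control arrays. It was at 1.09, 1.17, 1.19, 1.22 and 1.06 on the N1N2 arrays and at 0.07, 0.46, 0.99, 0.53 and 0.80 on the N1N2 plus Lrp6 arrays. Control overlapped both other groups, and each N1N2 array lay above each N1N2 plus Lrp6 array. Lman1 fell 1.49-fold with the Lrp6 antibody added (log2 change -0.58, SE 0.15, limma adjusted p = 0.015), and its second probe gave -0.58 (limma adjusted p = 0.0057). The change with the Notch antibodies alone, 0.25 (SE 0.15), was not called (limma adjusted p = 0.32), and its second probe gave 0.38 (limma adjusted p = 0.055). Under median centring the fall of Lman1 was -0.19, with a limma adjusted p of 0.52.

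Mcfd2, the calcium-binding partner of Lman1, had changes of 0.20 and -0.43, and only the second passed (limma adjusted p = 0.037), and it was -0.05 (limma adjusted p = 0.88) under median centring. Lman2, a related lectin, had changes of 0.31 and -0.44, the second called (limma adjusted p = 0.044), but its other probe gave -0.08, and median centring gave a limma adjusted p of 0.99. Kdelr3, one of 3 receptors that return proteins with a KDEL signal to the ER, had changes of 0.43 (limma adjusted p = 0.056) and -0.44 (limma adjusted p = 0.042). The second was -0.28 under median centring, not called. Kdelr1 and Kdelr2 changed by 0.23 and 0.29 with the Notch antibodies and by -0.31 and -0.17 with the Lrp6 antibody added, none called. Surf4, a receptor for soluble cargo, changed by 0.08 and -0.42, the latter with a limma adjusted p of 0.064. With loess all 12 cargo receptors had a change below 0 in N1N2 plus Lrp6 against N1N2.

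**Figure D2:**
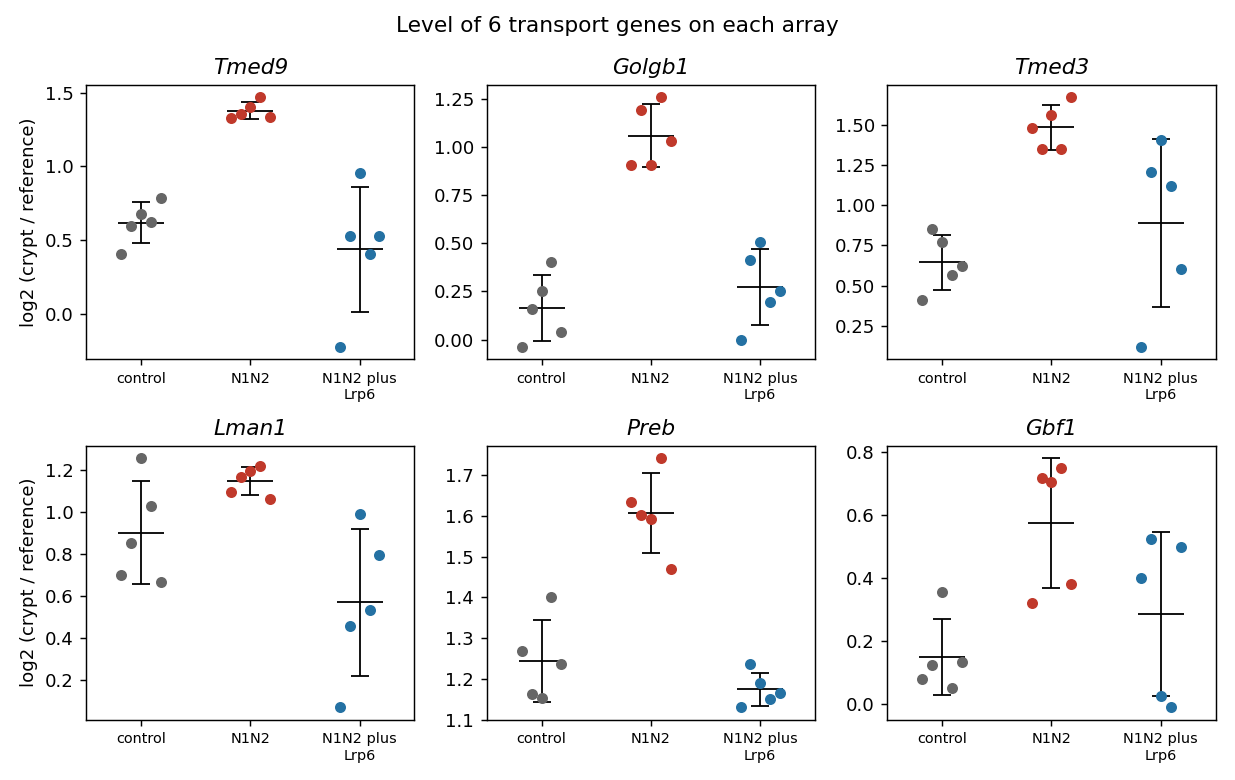
Log2 ratio of crypt over reference on each of the 15 arrays for Tmed9, Golgb1, Tmed3, Lman1, Preb and Gbf1, with the group mean and SD (n = 5 arrays). The N1N2 arrays of Tmed9, Golgb1 and Preb lie above all other arrays, and the N1N2 plus Lrp6 arrays of Tmed9, Tmed3 and Lman1 are widely spread.

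In the COPII group, 2 of 13 genes rose with the Notch antibodies (15.4%, against 6.57% of all features). With the Lrp6 antibody added 4 of 13 fell (30.8%, against 7.26% of all features). The median changes were 0.08 and -0.24. The medians were -0.12 and 0.03 under median centring and -0.31 and -0.15 with scaled arrays. The called genes act in coat assembly (Preb, Sec16a and Sar1a) or bind cargo (Sec24c), and no Sec23 or cage subunit was called.

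Preb, the exchange factor that activates Sar1 and so starts coat assembly, was at 1.27, 1.16, 1.15, 1.40 and 1.24 on the control arrays. The N1N2 arrays read 1.63, 1.60, 1.59, 1.74 and 1.47, and the N1N2 plus Lrp6 arrays 1.13, 1.24, 1.19, 1.15 and 1.17. All N1N2 arrays were above all arrays of the other groups, and the N1N2 plus Lrp6 arrays were tightly grouped, with an SD of 0.04. Preb rose 1.29-fold (log2 change 0.36, SE 0.07, limma adjusted p = 0.0029) and fell 1.35-fold (log2 change -0.43, SE 0.07, limma adjusted p = 0.00095). Its other probes gave 0.35 and 0.19 in the first comparison and -0.49 (limma adjusted p = 0.028) and -0.19 in the second. Neither call of Preb held under the other scalings. The first change was 0.07 under median centring and -0.02 with scaled arrays, and the second was -0.03 (limma adjusted p = 0.92) and -0.31 (limma adjusted p = 0.58).

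Sec16a, which organises ER exit sites, rose by 0.34 (SE 0.08, limma adjusted p = 0.017) and fell by 0.43 (SE 0.08, limma adjusted p = 0.0041), and its 5 N1N2 arrays, 1.13 to 1.32, lay above all 5 N1N2 plus Lrp6 arrays, 0.71 to 0.92. Under median centring the changes of Sec16a were 0.14 and -0.22, neither called. Its relative Sec16b changed by 0.12 and -0.38, the latter with a limma adjusted p of 0.059, with 4 of 5 N1N2 arrays giving a value. Sar1a, the GTPase that Preb activates, had changes of 0.24 (limma adjusted p = 0.081) and -0.26 (limma adjusted p = 0.042), and the second was 0.05 under median centring and 0.07 on its other probe. Sar1b changed by 0.08 and -0.07, neither called.

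Of the cargo adaptors, Sec24c changed by 0.24 (limma adjusted p = 0.095) and -0.40 (limma adjusted p = 0.0078), but the latter was 0.03 under median centring. Sec24a, Sec24b and Sec24d were not called, with changes of 0.07, -0.06 and -0.08 in the first comparison and -0.36, -0.08 and -0.18 in the second. For Sec24a, 4 of 5 N1N2 plus Lrp6 arrays gave a value. Sec23a and Sec23b, the inner coat's GTPase-activating subunits, changed by -0.07 and 0.17 in the first comparison and by -0.05 and -0.24 in the second, none called.

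No outer cage subunit was called. Sec13, which also belongs to the nuclear pore, was at 1.30, 1.10, 1.05, 1.03 and 1.29 on the control arrays and at 0.93, 0.64, 0.87, 0.57 and 0.83 on the N1N2 arrays. It was thus lower on every N1N2 array, with a change of -0.39 (SE 0.15) that did not pass over all features (limma adjusted p = 0.10). With the Lrp6 antibody added it ranged from 0.58 to 1.58, over both other groups. Sec31a changed by 0.03 and -0.23, neither called.

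Of the 12 COPI genes, 1 was called higher (8.33%, against 6.57% of all features) and none lower (against 5.15%) in N1N2 against control. None was called in N1N2 plus Lrp6 against N1N2, where 9.45% of all features were called higher and 7.26% lower. The median changes of the COPI group were 0.06 and -0.05, and -0.15 and 0.17 under median centring. The one called gene was Gbf1, the exchange factor that activates Arf proteins at the early Golgi. Gbf1 was at 0.08, 0.13, 0.35, 0.05 and 0.13 on the control arrays. Its N1N2 arrays read 0.32, 0.72, 0.71, 0.75 and 0.38, and its N1N2 plus Lrp6 arrays 0.40, 0.52, 0.03, -0.01 and 0.50. Control replicate 3 lay inside the N1N2 range, and the N1N2 plus Lrp6 arrays fell into a higher set of 3 and a lower set of 2.

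Gbf1 rose 1.34-fold (log2 change 0.43, SE 0.12, limma adjusted p = 0.036), and its change with the Lrp6 antibody added was -0.29 (SE 0.12, limma adjusted p = 0.13). The rise passed in 3 of the 10 fits that left out 1 array, those without control replicate 3, N1N2 replicate 1 or N1N2 replicate 5, and its limma adjusted p reached 0.095 without N1N2 replicate 4. Among the coat subunits, Copa, Copb1, Copb2, Copg1, Copg2, Cope, Copz1 and Arcn1 had first changes from -0.14 (Arcn1) to 0.18 (Cope) and second changes from -0.24 (Copb2) to 0.30 (Copg2), none called. The GTPases Arf1, Arf4 and Arf5 changed by 0.10, -0.17 and 0.32 with the Notch antibodies and by -0.07, 0.08 and -0.24 with the Lrp6 antibody added, none called, though Arf5 was higher on every N1N2 array than in control.

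**Figure D3:**
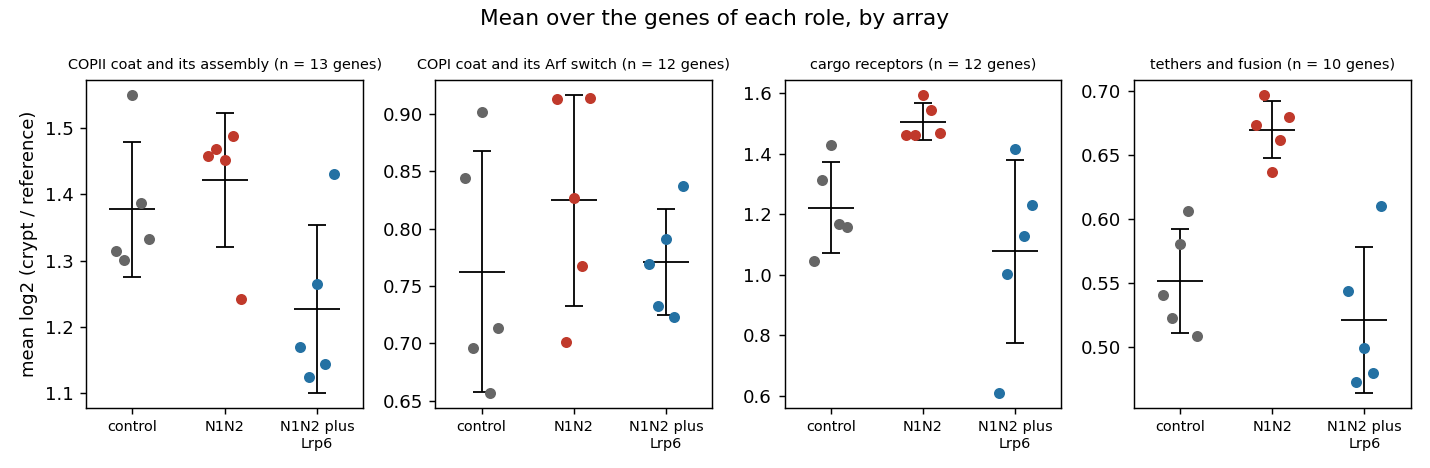
Mean log2 ratio of crypt over reference over the genes of each role, by array, with the group mean and SD (n = 5 arrays). The cargo receptor and tether means of all 5 N1N2 arrays lie above the control arrays, while the COPI means of the 3 groups overlap.

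Of the 10 tethers and fusion factors, 3 rose with the Notch antibodies (30%, against 6.57% of all features). With the Lrp6 antibody added 4 fell (40%, against 7.26% of all features). The medians of the 10 were -0.03 and -0.11. The called genes were the golgins Golgb1 and Golga2, the tether Uso1 and the SNARE Stx5a. Golgb1, a long golgin that tethers COPI vesicles, had the lowest adjusted p of the 47 genes in both comparisons. It was at -0.04, 0.16, 0.26, 0.40 and 0.04 on the control arrays, at 0.91, 1.19, 0.91, 1.26 and 1.03 on the N1N2 arrays, and at -0.0032, 0.41, 0.51, 0.19 and 0.25 on the N1N2 plus Lrp6 arrays. The N1N2 arrays stood well apart from the others, while control and N1N2 plus Lrp6 overlapped.

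Golgb1 rose 1.86-fold (log2 change 0.89, SE 0.11, limma adjusted p = 0.00011) and fell 1.73-fold (log2 change -0.79, SE 0.11, limma adjusted p = 0.00059). It kept both calls under median centring, at 0.68 and -0.57 (limma adjusted p = 0.028 and 0.032), and with scaled arrays, at 0.76 and -0.72 (limma adjusted p = 0.015 and 0.032). With slide as a fixed block the rise was 0.83, with a limma adjusted p of 0.12. Golgb1 has 1 probe on the array, so no second probe bears on it.

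Stx5a, the SNARE on which ER-to-Golgi fusion centres, rose by 0.42 (limma adjusted p = 0.017) and fell by 0.44 (limma adjusted p = 0.01), with N1N2 replicate 4 lacking a value. Under median centring its changes were 0.13 and -0.11, neither called. Golga2, a cis-Golgi golgin, rose by 0.28 and fell by 0.28, close to the threshold (limma adjusted p = 0.049 and 0.043). Its changes were 0.06 and -0.03 under median centring, neither called. Uso1, the tether that binds Golga2 and Golgb1, had changes of 0.24 (limma adjusted p = 0.066) and -0.37 (limma adjusted p = 0.0068). The second was -0.15 under median centring, not called. Golga5, another golgin, changed by 0.0030 and -0.14, neither called.

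The SNAREs Gosr2, Bet1 and Ykt6 changed by -0.17, -0.13 and -0.10 with the Notch antibodies and by 0.04, 0.05 and -0.07 with the Lrp6 antibody added, none called. The TRAPP tether subunits Trappc1 and Trappc3 leaned the other way from the called genes. Their changes were -0.07 and -0.11 in the first comparison and 0.23 and 0.20 in the second, none called. The second Trappc1 probe did pass in both, at -0.25 (limma adjusted p = 0.049) and 0.28 (limma adjusted p = 0.023). Over the 19 genes with several probes, a second probe had the same sign as the one used in 14 for the first comparison and 13 for the second.

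Other genes of the route, from a separate list of 78 of which 73 were tested, were called in both directions: 7 higher and 5 lower in N1N2 against control, and 3 higher and 6 lower in N1N2 plus Lrp6 against N1N2. In the first comparison these are 9.59% and 6.85% of the 73, against 6.57% and 5.15% of all features. In the second they are 4.11% and 8.22%, against 9.45% and 7.26%, so the calls lie near or below the shares over all features. The medians of the 73 were 0.03 and -0.0057. The largest first changes were Mia3 (0.72), which exports bulky cargo at exit sites, Ergic1 (0.68), Tmem39a (0.65), Tmed1 (-0.64), Bcap29 (-0.63), the Golgi tether subunits Cog1 (0.59) and Cog3 (0.55), and Bet1l (0.54). In the second comparison they were Tmem39a (-0.66), Cog3 (-0.65), Tmed1 (0.63), Mia3 (-0.61), Golga4 (-0.54), Arfgap1 (-0.34), Vti1a (0.34) and Trappc2 (0.25). Of the genes named, only Tmed1 kept its first call under median centring, and Tmem39a, Cog3 and Tmed1 kept the second. With scaled arrays Ergic1 and Tmem39a kept the first, and Tmem39a and Cog3 the second. None of the first changes named was called with slide as a fixed block. With loess Tmed1 thus went the opposite way from Tmed2, Tmed3 and Tmed9. Its changes with scaled arrays were -0.23 and 0.46, neither called (limma adjusted p = 0.63 and 0.43).

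Transcription factors and stress sensors that govern secretory capacity were also measured, 12 in all. Of these, 4 were higher in N1N2 than in control and 5 were lower in N1N2 plus Lrp6 than in N1N2. The calls are 33.3% and 41.7% of the list, against 6.57% and 7.26% of all features. Ern2, the ER stress sensor of mucous epithelia, changed by 1.81 and -1.27, Creb3l4 by 1.65 and -0.70, Creb3l1 by 1.63 and -0.89, and Atf4 by 0.71 and -0.51, all called in both comparisons (limma, Benjamini-Hochberg). Several of these calls were lost under other scalings. With scaled arrays neither change of Ern2 was called (1.18 and -1.01, limma adjusted p = 0.14 and 0.24), nor was either change of Creb3l4 (0.55 and -0.31, limma adjusted p = 0.59 and 0.89). Creb3l1's second change was not called under median centring (-0.67, limma adjusted p = 0.058) or with scaled arrays (-0.75, limma adjusted p = 0.072). Under median centring neither change of Atf4 was called (0.29 and 0.11), nor the second of Creb3l4 (-0.55, limma adjusted p = 0.054). With slide as a fixed block Ern2's first change was 1.42, not called (limma adjusted p = 0.17). Xbp1, the factor that drives secretory gene expression after ER stress, changed by 0.45 (limma adjusted p = 0.072) and fell by 0.56 (limma adjusted p = 0.022), the latter being -0.05 under median centring. With loess Creb3l4 and Creb3l1 were also above control in the N1N2 plus Lrp6 group, by 0.95 (limma adjusted p = 0.0068) and 0.74 (limma adjusted p = 0.041). In that comparison 53 of all features were called higher with loess, 17 under median centring and 1 with scaled arrays. The values of Creb3l4 and Creb3l1 against control under those scalings are not given here.

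Of 17 goblet cell markers tested, 9 rose in N1N2 against control and 8 fell in N1N2 plus Lrp6 against N1N2, with median changes of 0.62 and -0.48. The 9 were Spdef, Creb3l4, Creb3l1, Sytl2, Pdia5, Galnt12, Agr2, Slc12a8 and Tff3, and the 8 were these without Tff3. Creb3l1 and Creb3l4 are thus on this list too. Muc2, Clca1, Fcgbp, Spink4, Zg16, Guca2a, Bcas1 and Ramp1 were called in neither, with first changes from -0.14 (Ramp1) to 0.61 (Guca2a). These calls are 52.9% and 47.1% of the 17, against 6.57% and 7.26% of all features. With scaled arrays 3 goblet markers were called higher in the first comparison and none lower in the second, and the medians were -0.58 and -0.03. Their mean log2 ratio lay between 4.31 and 4.51 on the control arrays, 5.10 and 5.47 on the N1N2 arrays, and 4.48 and 5.02 on the N1N2 plus Lrp6 arrays, and all 17 were well above background on all 15 arrays. Of the 18 stromal and muscle markers, 2 were lower in the first comparison and 8 in the second (11.1% and 44.4%, against 5.15% and 7.26% of all features). Their medians were -0.27 and -0.56, and 0.79 and -0.87 with scaled arrays, where none was called. Of 7 Paneth and 12 enterocyte markers none was called in either comparison. The Paneth medians were 0.33 and -0.43, with 7 of 7 above 0 in the first comparison and 7 of 7 below in the second. The enterocyte medians were 0.22 and -0.27, with 11 of 12 above 0 in the first and 11 of 12 below in the second. With scaled arrays the Paneth medians were -1.70 and 0.06 and the enterocyte medians -1.56 and 0.19. Of 14 immune markers, Gzma fell by 0.77 (limma adjusted p = 0.0047) and Cd3e fell by 0.64 (limma adjusted p = 0.036) in N1N2 against control, where the median was -0.30, and none was called in N1N2 plus Lrp6 against N1N2, where it was -0.0084. The keratin gene Krt18 was the one called of 10 crypt epithelial markers in each of these comparisons, at 0.83 and -0.58 (limma adjusted p = 9.0e-05 and 0.0019). The part of these markers, of the detection share and of the slide in the results was not tested. In bulk crypts, fewer cells of a type and less RNA per cell cannot be told apart.

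Slide 2 held control replicates 4 and 5 and N1N2 replicates 1 and 2, and so allowed a comparison within a slide for the first contrast. There 25 of the 47 genes were higher on both N1N2 arrays than on both control arrays, against 25.3% of features, and 5 were lower on both, against 22.8%. The 9 genes that rose were called on data that include these arrays, so their values on this slide are given as a description, with differences of 0.83 for Golgb1, 0.82 for Tmed3, 0.64 for Tmed9, 0.47 for Tmed2, 0.43 for Gbf1, 0.40 for Stx5a, 0.36 for Sec16a, 0.31 for Golga2 and 0.30 for Preb. With slide as a fixed block none of the 47 was called by limma, where 78 features were called higher and 31 lower. The block takes this difference from the arrays of slide 2 alone, so it gives the same differences as the fit within the slide. The fit within the slide also called none of the 47 by limma. It called 1 feature higher and 2 lower over all features, so it could hardly call any of these genes. The median difference of the 47 genes was 0.21 within the slide.

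**Figure D4:**
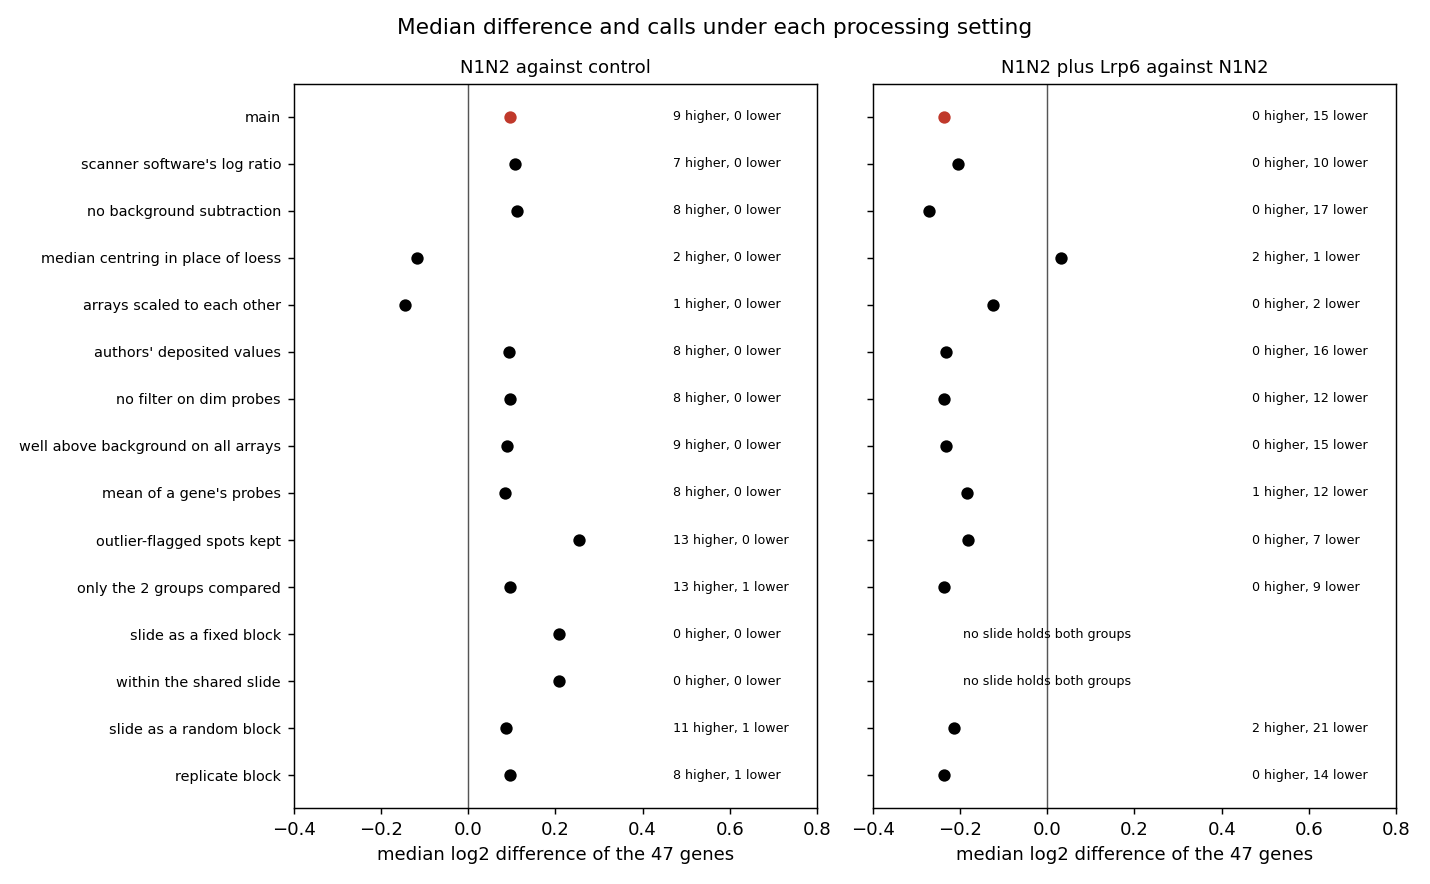
Median log2 difference over the 47 genes under each processing setting (points, red for the setting reported), with the number of genes called higher and lower printed beside it. In N1N2 against control the median lies below 0 with median centring (-0.12) and scaled arrays (-0.15), and in N1N2 plus Lrp6 against N1N2 it lies above 0 with median centring (0.03).

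The number of the 47 genes called changed with the normalization. Loess on each array gave 9 higher and 15 lower in the respective comparisons, median centring gave 2 higher in the first and 2 higher and 1 lower in the second, and scaling the arrays after loess gave 1 higher and 2 lower. The rises called were Golgb1 and Gbf1 under median centring and Golgb1 with scaled arrays, and the falls Golgb1 under median centring and Golgb1 and Tmed9 with scaled arrays. Over all features median centring moved the calls from 1573 higher and 1233 lower to 573 (2.39%) and 679 (2.84%) in the first comparison. In the second it moved them from 2261 higher and 1737 lower to 2634 (11%) and 780 (3.26%). Scaling gave 474 higher (1.98%) and 201 lower (0.84%) in the first, and 216 higher (0.902%) and 159 lower (0.664%) in the second. Of the 9 rises, 4 (Golgb1, Preb, Tmed3 and Tmed9) passed in every fit that left out 1 array, and of the 15 falls 9 did (Golgb1, Lman1, Preb, Sec16a, Sec24c, Stx5a, Tmed2, Tmed9 and Uso1). Golgb1's fall was the one call that also passed under every other setting run for its comparison.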

How the data were processed

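Crypt RNA of 15 samples was compared in 3 groups of 5 on 2-colour Agilent arrays. The scanner files deposited by the authors, read with Feature Extraction 11.0.1.1 per the file headers, give median intensity and local background intensity of both channels, quality flags and a log10 ratio of red over green. A value table on the log2 scale, also deposited by the authors, was made with R 3.0.0 and limma 3.6.7 per the submitters' processing notes. Its columns correlated at 0.99998 or more with the log2 ratios computed here, with slopes of 0.9987 to 1.003 and medians of 0.0144 to 0.0286, so its scale and direction are log2 of crypt over reference.

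Here R 4.3.3, limma 3.58.1 and data.table (version 1.17.8) were used. Outlier-flagged spots, 306 to 642 of 44397 per array, were left out before background correction (normexp, offset 50). No spot was saturated. Log2 ratios were normalized within arrays by loess, control spots at weight 0, and spots of a probe were averaged. A probe was kept if 4 or more of the 5 arrays of any group showed red signal well above background, which left 28486 of 39429. Gene names came from accessions looked up in RefSeq, with 26581 probes named. A gene took its brightest probe in red, averaged over arrays. The 23938 features, 370 of them lacking a value on at least 1 array, went into 1 limma model (lmFit, eBayes) of the 3 groups, with two-sided p-values adjusted by Benjamini-Hochberg over all features at 0.05. The script was tested on simulated data.

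Members, gene lists, tests and alternatives were chosen with earlier results of these data known. Values on every array are given for members called in either design comparison with a change of at least 0.5, and at least 1 per role; other pathway genes and regulators are named where called, at most 8 a list, and called genes beyond the 8 are counted only. One further transport gene was left off the list and is not reported here. Tmed2, Sec13 and other members given with partial values, and the promoters shown, were chosen after their values were seen. Alternatives covered background, normalization, the deposited values, filters, probes, flags, samples in the fit, slide, replicate block and leaving out each array.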

Additional observations from a re-analysis of the deposited data

Results flagged for a closer look

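Within groups of 5 arrays, 33 sets of values (the 6 genes described on every array and the means over the 47 genes and over each role, in each group) were examined for 1 array far from the rest, where chance gives about 1 in 20, and 3 had one. Gbf1 on control replicate 3 was at 0.355, with the other control arrays between 0.051 and 0.13. The mean over the 47 genes on control replicate 3 was 1.15, with the others between 0.955 and 0.984. The mean over the COPII genes on N1N2 replicate 5 was 1.24, with the others between 1.45 and 1.49.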

How the results depend on the processing

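The main counts were 9 higher and 0 lower in N1N2 against control, 0 higher and 15 lower in N1N2 plus Lrp6 against N1N2, and 0 in N1N2 plus Lrp6 against control. For the 9, median centring gave 2 (against 2.39% of all features) and scaled arrays 1 (1.98%). Slide as a fixed block (0.326%) or the shared slide alone (0.00418%), which rest on the same arrays, gave 0. For genes lower in N1N2 against control, fitting only the 2 groups gave 1 (against 8.24% of all features). Slide as a random block gave 1 (8.03%) and the replicate block 1 (4.24%). For genes higher in N1N2 plus Lrp6 against N1N2, median centring gave 2 (against 11% of all features). The mean of a gene's probes gave 1 (9.66%) and slide as a random block 2 (15.5%). For the 15, median centring gave 1 (against 3.26% of all features) and scaled arrays 2 (0.664%). Flagged spots kept gave 7 (4.36%) and only the 2 groups 9 (5.02%). Slide as a random block gave 4 lower in N1N2 plus Lrp6 against control (against 4.89% of all features), with a negative consensus correlation of -0.182. Causes were not tested.

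Leaving out each array gave 6 to 11 higher in N1N2 against control, against 3.86% to 6.47% of all features. It gave 9 to 15 lower and 0 to 1 higher in N1N2 plus Lrp6 against N1N2, against 4.51% to 8.67% and 6% to 11.1% of all features. In that comparison 9 were lower without N1N2 replicate 2 or 4 or N1N2 plus Lrp6 replicate 1 or 4, and 1 was higher without N1N2 replicate 1. The remaining counts stayed at 0 with each array left out.

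Called values that changed sign under median centring were Sar1a to 0.053, Sec24c to 0.032 and Atf4 to 0.11, all in N1N2 plus Lrp6 against N1N2, and with scaled arrays Preb to -0.023 in N1N2 against control. Values not called that changed sign were Lman1 in N1N2 against control (-0.038, median centring) and, in N1N2 plus Lrp6 against control, Preb (0.031, median centring, and 0.18, flagged spots kept) and Tmed9 (0.11, flagged spots kept). Of the single-gene values, 1025 kept their side of the threshold, these 4 included, 263 lost the call and 3 gained it.

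Same-numbered samples were not treated as paired in the main fit. For control with N1N2 the correlations of their deviations were 0.626, 0.282, -0.0106, 0.383 and 0.134 in replicates 1 to 5. For N1N2 with N1N2 plus Lrp6 they ran from -0.439 to 0.0964. Differently numbered samples were not correlated for comparison, so pairing was not tested. With the replicate block the counts in N1N2 against control were 8 higher and 1 lower, against 5.92% and 4.24% of all features. In N1N2 plus Lrp6 against N1N2 they were 0 higher and 14 lower, against 8.48% and 7.01%. In N1N2 plus Lrp6 against control the count was 0. Slide as a fixed block and the shared slide could not be fitted for the comparisons with N1N2 plus Lrp6. Signal over background limits Gbf1, which was well above background on 14 of 15 arrays.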
